A study of Danio rerio with 12 samples.

Results

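Chromatin that became accessible, and chromatin that ceased to be so, was followed in zebrafish (Danio rerio) embryos kept in all-trans retinoic acid (atRA), between 80% epiboly in late gastrulation and the 12 somites stage of segmentation. Accessibility was read by ATAC-seq, in which a transposase cuts DNA that is not shielded by nucleosomes or other proteins. All embryos were wild-type, and whole embryos were lysed after removal of the egg envelope and the yolk. The tested embryos at 12 somites had been in 0.1 µM atRA since 80% epiboly, and those at 80% epiboly in the same dose since 30% epiboly. Stage and the time of exposure thus differ together. The 12 somites embryos had reached 80% epiboly without atRA. Opened and closed therefore compare separately treated embryos and do not trace the course of the same treated embryos. Each stage had 2 atRA libraries, and these 4 of the 12 libraries of the series are the subject here. The others were 2 DMSO (solvent) libraries at 12 somites, 2 at 80% epiboly, and 2 atRA and 2 DMSO libraries at 24 hours post fertilization (hpf), with treatment from 80% epiboly on at the last stage too. The labels do not say whether libraries of a group came from separate clutches or days, so p-values measure only the spread between these libraries, which may be technical.

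Retinoic acid is made from vitamin A and acts in the nucleus, where it binds retinoic acid receptors that sit on DNA together with retinoid X receptors. In vertebrate embryos it patterns the hindbrain, the trunk and the somites along the head-to-tail axis, and enzymes of the Cyp26 family clear it from the places where it must be absent. During gastrulation the germ layers form and spread over the yolk, and many enhancers used then were opened by factors acting from the onset of zygotic transcription, among them Pou5f3, Nanog and Sox19b. By mid-segmentation the neural rod and notochord are in place, and muscle precursors differentiate in the somites.

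The data are 1 list of peaks per library, on the GRCz10 (danRer10) build named in the submitters' processing notes. The 4 atRA lists held 272915 and 239473 peaks at 12 somites, and 351548 and 154354 peaks at 80% epiboly, on chromosomes 1 to 25. Read totals are not in the lists, and the background pileup recovered from them, in fragments, served as a measure of depth. It was 1.60 and 1.44 in the 12 somites atRA libraries, 2.47 and 0.87 in the 80% epiboly atRA libraries, 0.69 and 1.15 in the 12 somites DMSO libraries, and 3.18 and 3.28 in the 80% epiboly DMSO libraries. The depths of both stages thus overlapped in atRA, but not in DMSO, where both 12 somites libraries were shallower. The second 80% epiboly atRA library stands apart as the shallowest of the atRA lists.

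Peaks were therefore compared by rank within each list, rank 1 being the peak with the highest −log10 p. The 50000 best peaks of the 4 atRA lists merged into 80564 regions. A region counts as opened if it was among the 50000 best of both 12 somites libraries and among the 100000 best of neither 80% epiboly library, and as closed if the reverse held. By that rule 2616 regions opened, or 3.25% of all regions, and 2081 closed, or 2.58%. A further 26129 regions, 32.4%, were among the 50000 best of all 4 libraries and are called constant. The plot of ranks at both stages shows opened and closed regions as the 2 edges of a continuous cloud. In a whole embryo, a region open in more cells and a region more open in the same cells cannot be told apart.

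**Figure D1:**
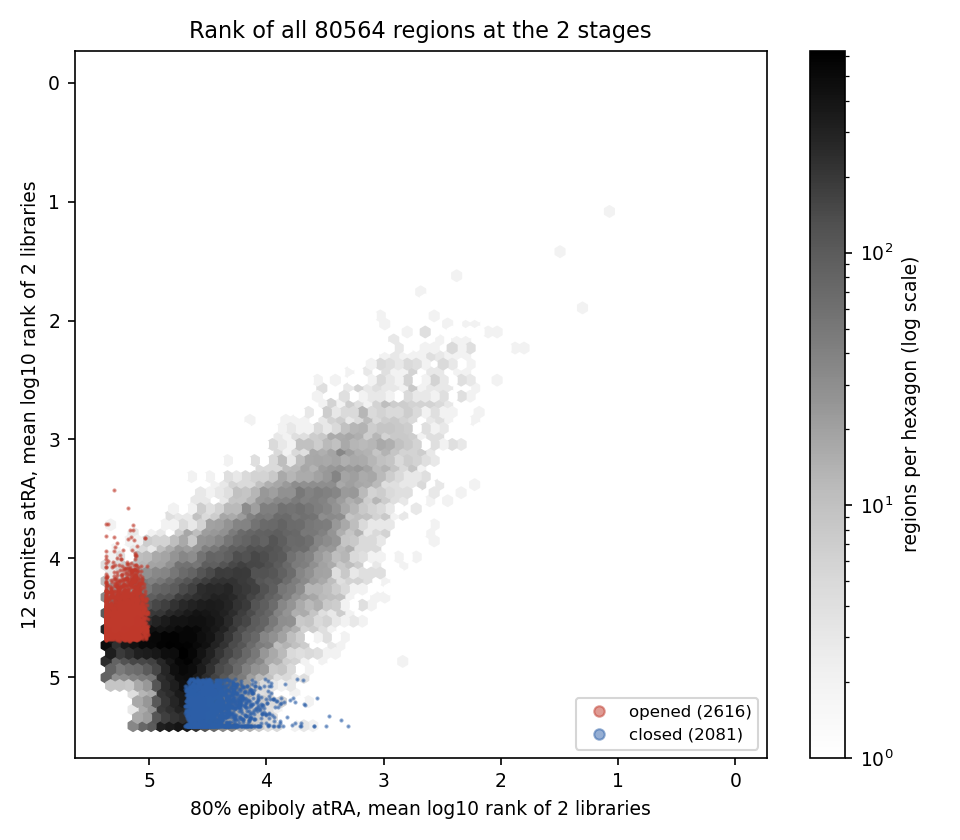
Mean log10 rank of each of the 80564 regions in the 2 atRA libraries of 12 somites (vertical axis) against the 2 of 80% epiboly (horizontal axis), with stronger ranks up and to the right; a region with no peak in a list is plotted at the length of that list. Grey hexagons count all regions on a log scale, red points are the 2616 opened regions and blue points the 2081 closed regions, which lie along the left and lower edges.

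In DMSO embryos the same rule gave 2711 opened regions, 3.33% of 81403, and 4456 closed regions, 5.47%. Opened regions outnumbered closed ones in atRA by 535, while in DMSO the difference was -1745. In DMSO the stage with more regions of its own, 80% epiboly, was also the deeper one. Where membership asks only 1 library of a stage because the other is left out, 4029 regions opened in atRA and 5160 closed without 80% epiboly atRA replicate 2, and 4821 opened and 5449 closed without replicate 1. Without 12 somites atRA replicate 1 or 2, 4705 or 5621 regions opened and 3241 or 3385 closed. More regions closed than opened without either 80% epiboly library, and more opened than closed without either 12 somites library. In each case the stage decided by 1 library gained the more regions. These counts therefore cannot show which direction was in excess. The part of depth in the contrast with DMSO was not tested.

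The changed regions were moderate peaks in the stage that had them. The rule used these values, so they are given as a description. In the 12 somites atRA libraries, peaks at opened regions had a median fold enrichment of 9.34 and 9.03 over the caller's background, with 31 and 27 fragments at the summit. Where the 80% epiboly atRA libraries had a peak there, its median fold was 5.0 and 4.29. For closed regions, medians were 4.54 and 4.51 at 12 somites, against 9.87 and 8.06 at 80% epiboly. Constant regions had medians of 11.3 and 11.4 at 12 somites and 11.7 and 10.7 at 80% epiboly, above both classes. Over all regions with a peak, the medians were 8.46 and 8.41 at 12 somites and 9.09 and 7.66 at 80% epiboly. These lay below the medians of opened and closed regions in the stage that had them.

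**Figure D2:**
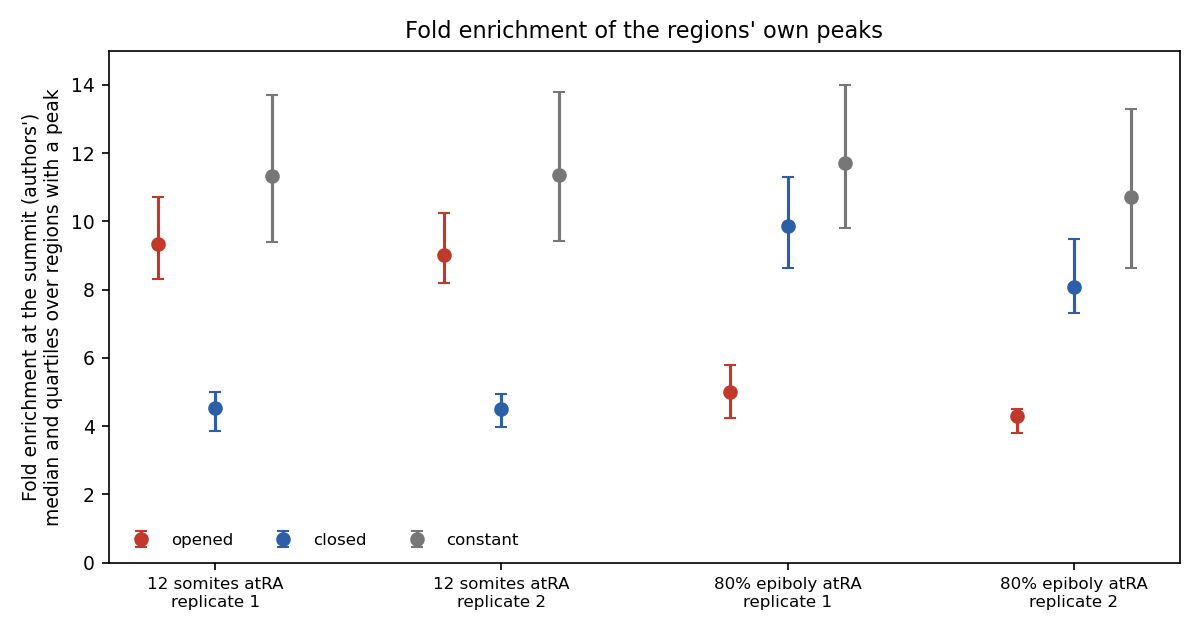
Fold enrichment at the summit as the authors deposited it, for the regions' own peaks in the 4 atRA libraries. Points are medians and bars are quartiles over opened (red), closed (blue) and constant (grey) regions that have a peak in that library; the lowest medians, 4.29 to 5.0, belong to opened regions at 80% epiboly and closed regions at 12 somites.

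Few members ranked near the top of their lists. The worse of the 2 ranks that made a region opened had a median of 38833 (quartiles 30961 and 44945), and 22 opened regions, 0.841%, were among the 10000 best in both 12 somites libraries. For closed regions that median was 38968 (quartiles 30347 and 45081), and 31 of them, 1.49%, were among the 10000 best in both 80% epiboly libraries. Of the constant regions, 18.8% ranked among the 10000 best in all 4 libraries. Opened regions had a median width of 333 bp, closed regions 360 bp and constant regions 413 bp, against 340 bp over all regions.

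Most changed regions still had a listed peak in an atRA library of the other stage. Of the 2616 opened regions, 356 had no peak in either 80% epiboly atRA list. The deep first list lacked a peak at 390 of them and the shallow second list at 1839. Of the 2081 closed regions, 303 had no peak in either 12 somites atRA list, with 513 and 643 lacking one in the single lists. Over all 80564 regions, 1507 had no peak in either 80% epiboly atRA list, with 1849 and 9043 lacking one in the single lists. For the 12 somites atRA lists these counts were 1709, and 2906 and 3611. A missing peak means below the caller's threshold at that list's depth, not absence of accessibility.

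At the limit of the rule, regions barely differ. The last region inside, chr2:50644677-50644916, ranked 49994 and 42552 in the 12 somites atRA libraries. The first outside, chr21:28646249-28646447, ranked 50010 and 45798 there. Both were past rank 100000 in the first 80% epiboly atRA library and had no peak in the second. Among closed regions, chr4:65820134-65820333 was the last inside, at ranks 48164 and 49986 in the 80% epiboly atRA libraries, and chr12:43309994-43310356 the first outside, at ranks 27438 and 50004.

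The 8 opened regions with the best worse rank were all among the 50000 best peaks of both 12 somites DMSO libraries as well. The strongest was chr11:36747060-36747354. Its ranks were 2533 and 2743 at 12 somites in atRA, where 58 and 54 fragments piled up at the summit and folds were 18.9 and 19.0. At 80% epiboly the first atRA library had rank 256645, with a pileup of 13 and a fold of 4.0, and the second had no peak. In DMSO the region ranked 10524 and 3233 at 12 somites and 59933 and 46632 at 80% epiboly. Control embryos at 80% epiboly thus had it far nearer the top of their lists than treated embryos of that stage. At 24 hpf it ranked 26351 and 13765 in atRA and 46161 and 9159 in DMSO.

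Another 4 of the 8 were past rank 100000 in both atRA libraries of 80% epiboly and among the 50000 best of all 8 later libraries. The region chr10:38375795-38376158 ranked 5117 and 6630 at 12 somites in atRA, against 136152 and 136564 at 80% epiboly, and then 1491 and 3546 at 24 hpf in atRA and 2164 and 3524 in DMSO. At chr6:56360046-56360421 the ranks were 7101 and 4753 at 12 somites in atRA, against 167522 and 124597 at 80% epiboly, and the 24 hpf ranks lay between 5443 and 7627. For chr17:5865723-5866100 they were 6535 and 4178, against 123624 and 153986. Those of chr23:34078925-34079442 were 7155 and 6725, against 210424 and 107773. In DMSO this last region ranked 38739 and 13698 at 12 somites, against 183230 and 85785 at 80% epiboly, so it lay within the 100000 best of 1 control library. These 4 regions and the one on chromosome 11 were among the 50000 best in all 4 libraries at 24 hpf.

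The other 3 had no peak in any of the 4 libraries at 24 hpf. The clearest is chr12:47650588-47650856, which ranked 4103 and 3411 in atRA and 2083 and 3362 in DMSO at 12 somites. At 80% epiboly a single weak peak was listed there, at rank 146016 in the first atRA library. The region chr2:53458829-53459370 ranked 6133 and 6880 in atRA and 6562 and 16158 in DMSO at 12 somites, and at 80% epiboly 1 of the 4 libraries, DMSO replicate 2, had a peak, at rank 344673. For chr2:56281278-56281649 the ranks at 12 somites were 7156 and 6731 in atRA and 6735 and 1984 in DMSO, while the 80% epiboly libraries all had it between ranks 126633 and 251574. Over all opened regions, 756 were among the 50000 best of all 4 libraries at 12 somites, and 39 of these had no peak at 24 hpf. Over all 80564 regions the counts were 29515 and 95.

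Of the 8 strongest closed regions, 7 were among the 50000 best peaks of both 80% epiboly DMSO libraries, and 4 had no peak in either 12 somites atRA library. The exception was also the strongest, chr23:43500242-43500610. It had no peak in the 12 somites atRA libraries and ranked 1167 and 3492 in the 80% epiboly atRA libraries, with pileups of 81 and 43. In DMSO it had no peak at 80% epiboly, and at 12 somites a peak in replicate 2 alone, at rank 185302. At 24 hpf it was strong in all libraries, at ranks 6653 and 6870 in atRA and 1107 and 10877 in DMSO. Over the 3 stages this region was thus high, then without a peak, then high again in the atRA libraries. In the DMSO libraries it was high at the last stage alone. The atRA embryos of 12 somites and 24 hpf were treated only from 80% epiboly on. The order in atRA is therefore not a course through the same treated embryos.

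The region chr5:7478773-7479092 was strong at the first and last stages in both treatments. It had rank 120474 and no peak in the 12 somites atRA libraries, against ranks 3873 and 5715 at 80% epiboly. The 24 hpf ranks were 6557 and 6787 in atRA and 630 and 3903 in DMSO. By contrast, chr5:65292361-65292861 ranked 3571 and 4264 in the 80% epiboly atRA libraries and 2179 and 1674 in the DMSO libraries of that stage, and had no peak in any of the 8 later lists. At chr12:3379893-3380285 the 12 somites libraries of both treatments had no peak, the 80% epiboly ranks were 3105 and 4901 in atRA and 3196 and 3161 in DMSO, and the 24 hpf ranks lay between 47872 and 152087. A similar course was seen at chr4:58457091-58457373, on the arm of chromosome 4 that is rich in repeats, where reads of near-identical copies are hard to place. Its ranks at 80% epiboly were 5140 and 4933 in atRA, and the 4 ranks at 24 hpf lay between 30486 and 59314.

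The remaining 3 closed regions kept weak peaks. The region chr16:55159585-55159981 ranked 129331 and 170147 in the 12 somites atRA libraries, with pileups of 13 and 10, against 3334 and 4184 at 80% epiboly, with pileups of 88 and 45. For chr1:8773521-8774090 the ranks were 112557 and 100472 at 12 somites, against 4486 and 5338 at 80% epiboly. That region was stronger still in the 80% epiboly DMSO libraries, at ranks 625 and 496. The reverse held for chr8:53725920-53726316, with ranks 4319 and 5194 in atRA and 37417 and 46565 in DMSO at 80% epiboly. At 12 somites it had a peak in 1 of the 4 libraries, atRA replicate 2, at rank 102416.

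**Figure D3:**
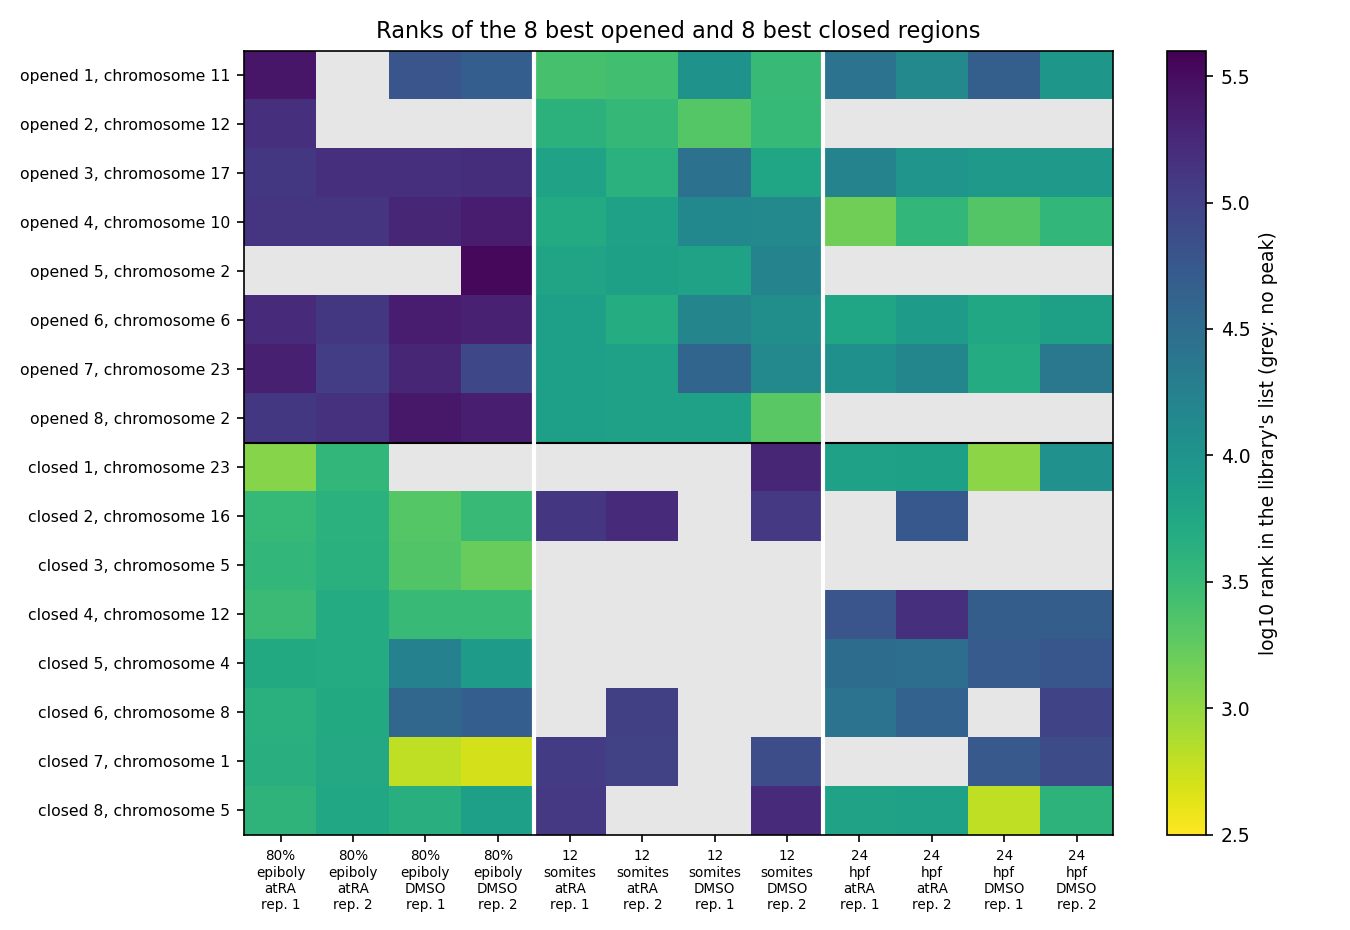
Log10 rank of the 8 best opened regions (upper rows) and the 8 best closed regions (lower rows) in each of the 12 libraries, ordered by stage and with atRA left of DMSO within a stage; lighter colours are stronger peaks and grey means no peak. In the upper part 3 rows are grey in all 4 libraries of 24 hpf, and the first and last of the lower rows are strong at 80% epiboly in atRA and again in all 24 hpf libraries.

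Whether the changes held in libraries that had no part in choosing the regions was asked next, with the share of opened or closed regions among the 50000 best peaks of each library. In the 6 later libraries, which are the DMSO libraries of 12 somites and all those of 24 hpf, a mean of 52.3% ± 6.14 of the opened regions were in the set (SD, n = 6), against 3.15% ± 0.297 in the 80% epiboly DMSO libraries (SD, n = 2). The difference was 49.1 percentage points (exact permutation test over 28 splits, two-sided, p = 0.0357, which no split of these libraries can go below). Every later library exceeded both early ones. The later libraries pool groups that differ in stage and treatment, and both early ones were deeper than all of them. Background pileups were 3.18 and 3.28 in the early libraries and 0.69 to 2.03 in the later ones. The part of depth was not tested, here or for the closed regions below. The single values were 44.3% and 46.3% in DMSO at 12 somites, 54.4% and 56.5% in atRA at 24 hpf, and 60.4% and 51.9% in DMSO at 24 hpf, against 3.36% and 2.94% in DMSO at 80% epiboly. At 24 hpf the values of both treatments overlapped. Over all 80564 regions the share was 53.9% ± 2.64 in DMSO at 12 somites, 51.0% ± 0.316 in atRA and 51.8% ± 0.108 in DMSO at 24 hpf, and 55.5% ± 0.107 in DMSO at 80% epiboly (SD, n = 2 each). Opened regions were thus below the share of all regions in 12 somites DMSO and near it at 24 hpf, and it is in 80% epiboly DMSO that they stood far from it.

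For closed regions the later mean was 7.01% ± 0.730 (SD, n = 6), against 69.6% ± 1.53 (SD, n = 2) in the 80% epiboly DMSO libraries. The difference was -62.6 points (exact permutation test over 28 splits, two-sided, p = 0.0357, which no split of these libraries can go below). Later libraries lay between 6.30% and 8.07%, and both early ones were far above, at 68.5% and 70.6%. The later values lie far below the shares of all regions given above, and the early ones above theirs. Restricted to the 2 DMSO libraries of 12 somites against the 2 of 80% epiboly, the differences were 42.1 points for opened and -63.0 points for closed regions, and with 2 libraries against 2 the exact permutation p cannot be below 0.33, the value found. With all peaks of a q-value of at most 0.01 in place of equal numbers, the difference for opened regions turned to -12.7 points (exact permutation p = 0.107). The lists then differ in length, and the 80% epiboly DMSO lists are the longest of the series.

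**Figure D4:**
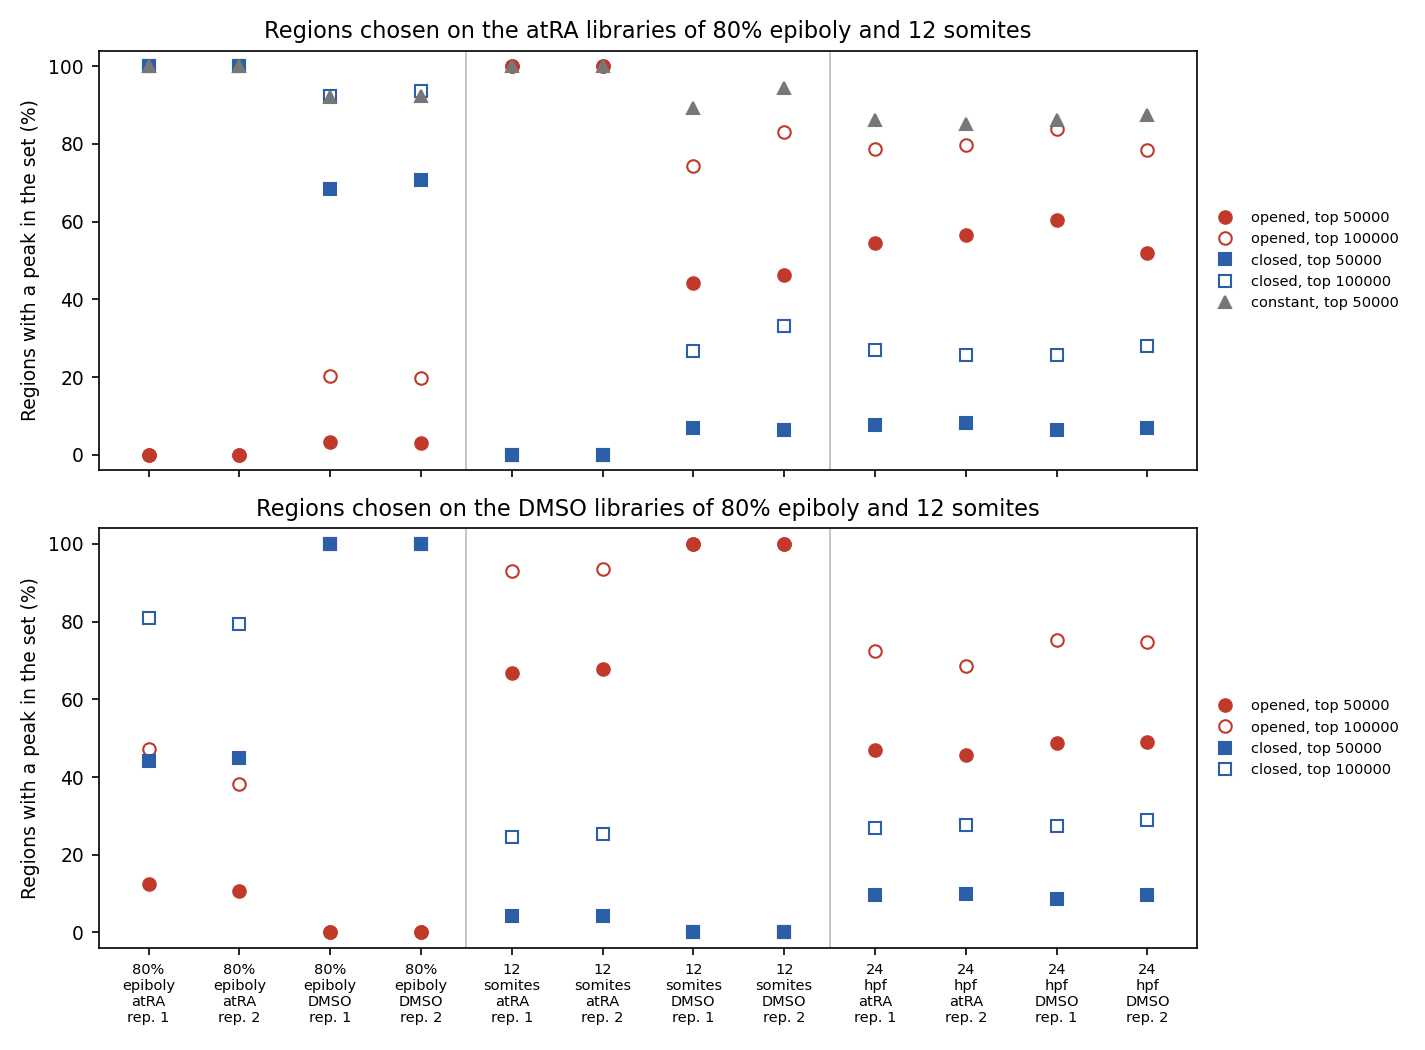
Share of regions with a peak among the 50000 best (filled) or 100000 best (open symbols) of each of the 12 libraries, for regions chosen on the atRA libraries (upper panel) and on the DMSO libraries (lower panel). Values of 0% and 100% in the libraries that chose the regions follow from the rule; in the upper panel opened regions (red) lie between 44.3% and 60.4% in the filled symbols of the 6 later libraries that the rule did not use.

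Some of the same regions met the full rule in both treatments. Of the regions opened in atRA, 535 overlapped a region opened in DMSO, which is 20.5% of the atRA list and 19.7% of the DMSO list, where 3.33% of all DMSO regions opened. Without 12 somites atRA replicate 2 the share of the atRA list was 12.0%. Of those closed in atRA, 679 overlapped a region closed in DMSO, 32.6% of the atRA list and 15.2% of the longer DMSO list, where 5.47% of all DMSO regions closed. Without 80% epiboly atRA replicate 1 or 2 the share of the atRA list was 21.0% or 21.3%. Opposite calls were rare. There were 3 regions opened in atRA and closed in DMSO, and 2 closed in atRA and opened in DMSO. No library is shared between the lists.

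What DMSO embryos had in place of the full change differed from region to region. Of the 2616 regions opened in atRA, 756 (28.9%) were among the 50000 best of both 12 somites DMSO libraries, 235 (8.98%) among the 100000 best of neither, and 1625 (62.1%) in between. Over all regions, 42.9% were among the 50000 best of both and 13.4% among the 100000 best of neither. At 80% epiboly, 1921 of the 2616 (73.4%) were among the 100000 best of neither DMSO library, against 15.7% of all regions. The remaining 695 were among the 100000 best of at least 1 DMSO library, while by the rule they were in neither atRA library. Of the 2616, 45 (1.72%) were among the 50000 best of both DMSO libraries, against 50.02% of all regions. Of the 2081 closed regions, 29 (1.39%) were among the 50000 best of both 12 somites DMSO libraries, 1116 (53.6%) among the 100000 best of neither, and 936 (45.0%) in between. At 80% epiboly, 1308 (62.9%) were among the 50000 best of both DMSO libraries and 107 (5.14%) among the 100000 best of neither, against 50.02% and 15.7% of all regions.

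Seen from the other side, regions that changed in DMSO were followed through the atRA libraries, which had no part in choosing them. Of the 2711 regions opened in DMSO, 66.8% and 67.8% were among the 50000 best of the 12 somites atRA libraries, and 12.5% and 10.7% of the 80% epiboly atRA libraries. For the wider set of 100000, the shares in the 80% epiboly atRA libraries were 47.3% and 38.1%. The converse values, for regions opened in atRA, were 20.2% and 19.7% in the 80% epiboly DMSO libraries. These shares belong to different lists of regions and are not set against each other here. The treated libraries of 80% epiboly were shallower than the control ones, with background pileups of 2.47 and 0.87 against 3.18 and 3.28. The part of depth was not tested. Of the 4456 regions closed in DMSO, 4.29% were among the 50000 best of either 12 somites atRA library, and 44.2% and 44.9% of the 80% epiboly atRA libraries. The shares of all 81403 DMSO regions in the atRA libraries were not computed. Whether the shares of regions opened or closed in DMSO lie above or below those of any DMSO region is therefore not known. For regions opened in atRA, the 20.2% and 19.7% lay far below the shares of all 80564 atRA regions in the same libraries and set, 79.9% and 80.2%.

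The 235 regions opened in atRA that were weak in 12 somites DMSO were led by chr4:11621529-11621925. It ranked 16369 and 14497 in atRA and 116802 and 132870 in DMSO at 12 somites, with pileups of 39 and 35 in atRA and 6 and 10 in DMSO. The DMSO libraries were the shallower ones. Folds over the caller's background were 11.8 and 13.3 in atRA and 4.15 and 4.80 in DMSO. The first 80% epiboly atRA library listed it at rank 203184 and the second had no peak. Next came chr25:251216-251473, with ranks of 19505 and 17843 in atRA and 109946 and 110105 in DMSO at 12 somites, and no peak in any of the 4 libraries of 80% epiboly. The region chr13:7685567-7685964 ranked 7230 and 19638 in the 12 somites atRA libraries, and of the other 10 lists 1, that of 24 hpf DMSO replicate 2, held a peak there, at rank 195177. At chr14:32847211-32847587 the ranks were 20493 and 18695 in atRA at 12 somites, where DMSO had no peak and rank 166500, and the 24 hpf ranks lay between 15735 and 29204 in both treatments. Over all 235, 35.7% and 46.8% were among the 50000 best of the 24 hpf atRA libraries, and 47.2% and 26.8% of the 24 hpf DMSO libraries, so the treatments overlapped there. All 4 values lay below the shares over all regions in the same libraries, which were 51.2% and 50.8% in atRA and 51.7% and 51.8% in DMSO.

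The 29 regions that closed in atRA and stayed among the 50000 best of 12 somites DMSO were led by chr7:60713830-60714640. At 12 somites it ranked 135909 and 102141 in atRA and 40475 and 32299 in DMSO, while at 80% epiboly it ranked 7276 and 11439 in atRA and 13333 and 12938 in DMSO. At chr22:24932093-24932444 the 12 somites ranks were 104712 and 173124 in atRA and 15753 and 34084 in DMSO. Those of chr19:2377784-2378294 were 128797 and 207016 in atRA and 48115 and 30589 in DMSO. For chr2:58355250-58355605 they were 127145 and 142037 in atRA and 28528 and 41046 in DMSO. Pileups at the first of these were 13 and 13 in atRA and 11 and 21 in DMSO, in libraries with background pileups of 1.60 and 1.44 and of 0.69 and 1.15. Its folds over the caller's background were 4.83 and 5.74 in atRA and 6.63 and 9.40 in DMSO. Both DMSO libraries thus had the higher fold at this region, though not both had more fragments.

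Among the 107 closed regions that were weak in both 80% epiboly DMSO libraries, chr23:43500242-43500610 was the strongest. Of these 107, 27 had no peak in any of the 4 libraries of 12 somites, against 187 of all 2081 closed regions and 1074 of all 80564 regions. At 24 hpf, 57 of the 107 (53.3%) were among the 100000 best of none of the 4 libraries. That is near the 49.1% of all closed regions, against 12.6% of all regions. Among the 50000 best of all 4 were 4 (3.74%), against 2.21% of closed regions and 37.0% of all regions.

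At 24 hpf, regions opened by 12 somites were found about as often as any region. In both atRA libraries 1134 of the 2616 (43.3%) were among the 50000 best, against 42.9% of all regions, and in both DMSO libraries 1145 (43.8%), against 44.0% of all regions. All 4 libraries of 24 hpf had 875 (33.4%) of them in that set, against 37.0% over all regions and 75.6% of constant regions. In none of the 4 were 183 (7.0%) among the 100000 best, against 12.6% of all regions. Closed regions were found far less often than all regions. Of the 2081, 88 (4.23%) were among the 50000 best of both atRA libraries at 24 hpf, 79 (3.80%) of both DMSO libraries and 46 (2.21%) of all 4, while 1021 (49.1%) were among the 100000 best of none, against the 12.6% of all regions.

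A few regions had peaks in the lists of a single stage. Among opened regions, 8 were in the 50000 best of all 4 libraries of 12 somites and had no peak in any of the other 8 lists. The best of them was chr3:4027551-4027873, at ranks 18981 and 18776 in atRA and 7560 and 14290 in DMSO, and the next was chr3:59819929-59820165, at ranks 28737 and 21054 in atRA and 26961 and 13158 in DMSO. Among closed regions, 48 were in the 50000 best of all 4 libraries of 80% epiboly and had no peak in any of the 8 later lists. After chr5:65292361-65292861 the strongest was chr1:25664267-25664693, at ranks 9804 and 7835 in atRA and 6392 and 4055 in DMSO. Next was chr5:59838991-59839391, at ranks 16226 and 12565 in atRA and 11597 and 6038 in DMSO. Any region that meets these conditions is opened or closed by the rule, so the counts over all 80564 regions are the same 8 and 48. These regions were singled out after their values were seen. The 8 and the 48 are not set against each other, since the lists differ in length. At 80% epiboly they held 351548 and 154354 peaks in atRA and 433132 and 439137 in DMSO. The 8 later lists held 156361 to 272915 peaks.

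Changed regions of one direction lay nearer to each other than to those of the other direction. Of the opened regions, 29.1% had another opened region within 50 kb and 12.3% a closed one. For closed regions, 21.3% had another closed region within 50 kb and 14.5% an opened one. The median distance from an opened region was 129891 bp to the next opened and 266026 bp to the nearest closed one. From a closed region it was 176713 bp to the next closed and 216839 bp to the nearest opened one, although the opened list is the longer. The shares of all regions that lie near an opened or a closed one were not computed. The uneven spread of 12 somites atRA top peaks over chromosomes, described below, was not taken into account in these distances. Distances to the nearest constant region had medians of 15448 bp from opened and 18026 bp from closed regions, against 16026 bp over all regions that were not constant. No annotation of GRCz10 was used here, so genes at these regions are not named.

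The densest 100 kb windows held few members. Of the 12890 windows with any region, 2226 had an opened region, 42 had 3 or more, and none had over 5. In the window of chromosome 1 from 34800001 to 34900000, 5 of 12 regions opened and none closed. Of these, chr1:34819169-34819458 was the strongest, at ranks 13461 and 21443 in the 12 somites atRA libraries, against 106846 and no peak at 80% epiboly. All 5 lacked a peak in the shallow 80% epiboly atRA library. In the window of chromosome 2 from 56200001 to 56300000, 5 of 17 regions opened and 1 closed. It holds chr2:56281278-56281649, described above, and chr2:56285256-56285620, with ranks of 10767 and 11429 in the 12 somites atRA libraries, against 151342 and no peak at 80% epiboly. Neither had a peak in any 24 hpf library. In another, on chromosome 3 from 5200001 to 5300000, 4 of 14 regions opened and 1 closed.

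Of the windows with a closed region, 25 held 3 or more, so the windows of chromosome 1 named below are among several with equal counts. Closed regions were at most 4 to a window. That window, on chromosome 11 from 39500001 to 39600000, also held 1 opened region, and its 4 closed regions ranked between 15129 and 49525 in the 80% epiboly atRA libraries. A window of chromosome 1 from 25600001 to 25700000 held 3 closed regions, 2 opened ones and 7 constant ones. The strongest of the 3 was chr1:25664267-25664693. Another window, on the same chromosome from 55400001 to 55500000, held 3 closed regions among 6.

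Chromosomes differed in the balance of opened and closed regions. On chromosome 10, 123 regions opened (4.42% of its 2781) and 38 closed (1.37%), a ratio of 3.24, and in DMSO 102 opened and 130 closed there. On chromosome 7, 89 opened (1.94%) and 160 closed (3.49%), and in DMSO 119 opened and 323 closed. Chromosome 13 had the most opened regions, 151, against 71 closed. The ratio of opened to closed regions was higher in atRA than in DMSO on 24 of the 25 chromosomes. The exception was chromosome 8, with 69 opened and 95 closed in atRA and 116 and 143 in DMSO. The balance by chromosome also depended on which library was left out, alternatives added after seeing the data. Opened regions outnumbered closed ones in atRA on 17 chromosomes with all libraries. They did so on 9 without 80% epiboly atRA replicate 1 and on 7 without replicate 2. Without 12 somites atRA replicate 1 or 2 they did so on 21 or 24. On chromosome 10 the ratio was 1.41 and 1.55 without an 80% epiboly library, and 2.94 and 2.87 without a 12 somites library. On chromosomes 7 and 8 it was between 0.351 and 0.627 without an 80% epiboly library. Without 12 somites atRA replicate 1 or 2 it was 0.723 or 0.959 on chromosome 7 and 0.901 or 1.125 on chromosome 8.

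**Figure D5:**
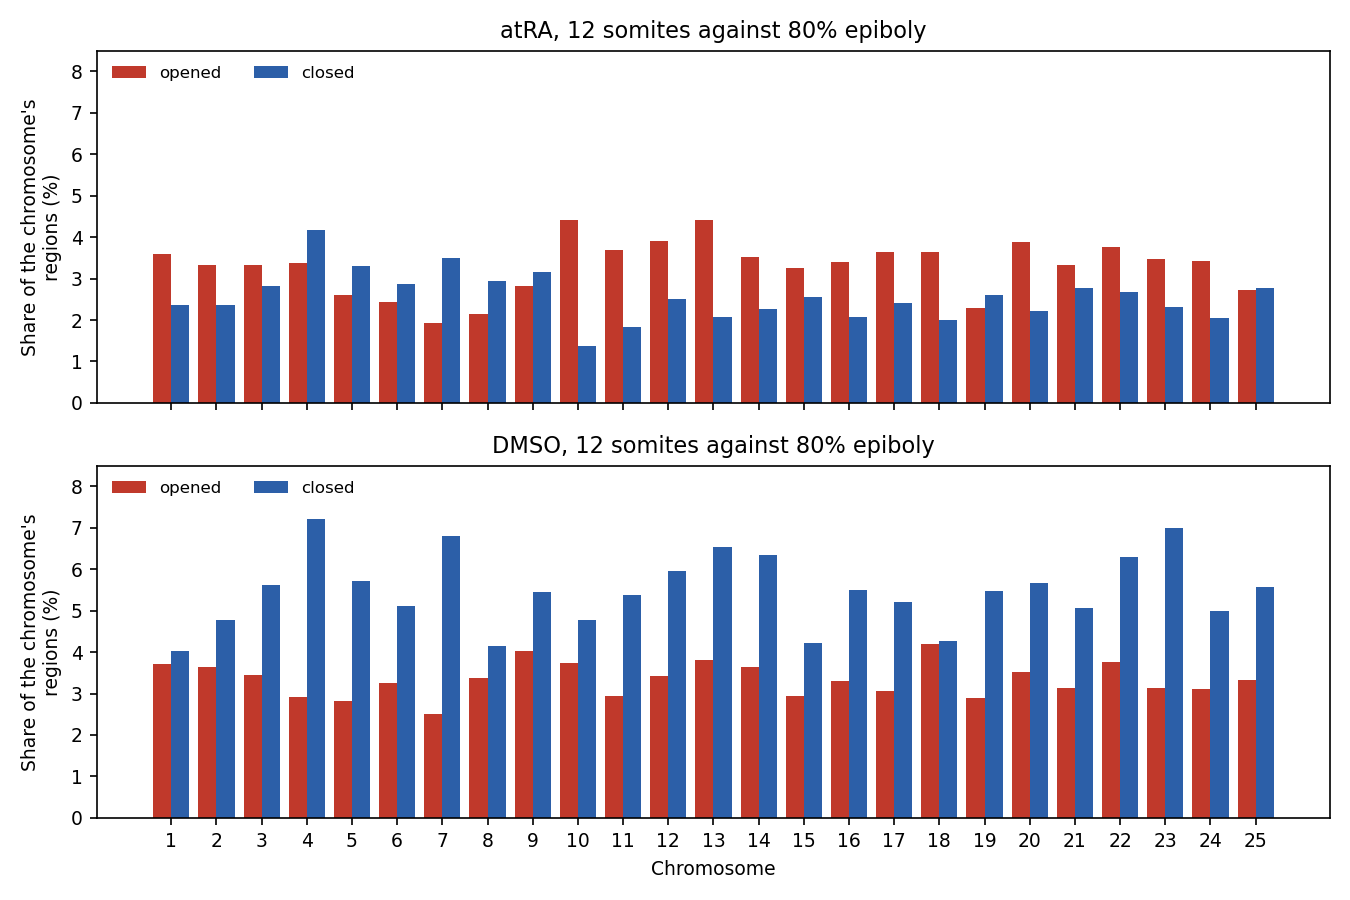
Share of each chromosome's regions that opened (red) or closed (blue) between 80% epiboly and 12 somites, in atRA (upper panel) and DMSO (lower panel). In atRA opened regions outnumber closed ones on 17 chromosomes, with the widest gap on chromosome 10, and in DMSO on none. In DMSO the 12 somites libraries were the shallower ones. Without 80% epiboly atRA replicate 1 or 2 they do so in atRA on 9 or 7 chromosomes, and without 12 somites atRA replicate 1 or 2 on 21 or 24.

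Within chromosome 8 the balance was uneven. Its first 5 Mb held 2 opened and 22 closed regions in atRA, against 13 and 12 in DMSO. In several of its other 5 Mb stretches opened regions in atRA were as many as closed ones or more. Part of the pattern by chromosome was also seen in how the top peaks of the 12 somites atRA libraries were spread over chromosomes. Of their 50000 best peaks, 3.75% and 3.80% lay on chromosome 10, against 3.36% to 3.51% in the other 10 libraries. On chromosome 8 the shares were 3.81% and 3.87%, against 4.02% to 4.40%, and on chromosome 7 they were 5.14% and 5.09%, against 5.49% to 6.07%. Both 12 somites atRA libraries lay above all other libraries on 8 chromosomes and below all others on 6. The 80% epiboly atRA pair did so on 0 chromosomes, and the other pairs on 1 to 4. When every list was made to hold the same number of top peaks per chromosome, an alternative added after seeing these shares, 2580 regions opened and 2067 closed in all. The ratio in atRA was then 2.09 on chromosome 10, 1.20 on chromosome 8 and 1.13 on chromosome 7, against 0.70, 0.68 and 0.581 in DMSO. With these equal numbers it was higher in atRA on all 25 chromosomes, chromosome 8 included, and opened regions outnumbered closed ones in atRA on 21. All chromosomes were read in the same libraries, where the ratio by the main rule was 1.26 in atRA and 0.608 in DMSO. The chromosomes are therefore not separate instances of the contrast with DMSO. The part of depth in it was not tested, and no DMSO library was left out.

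The part of chromosome 4 from 28 Mb on, which takes in its long arm, held 46 closed regions, 2.21% of them, and 20 opened ones, 0.765%. It held 0.925% of all regions. In DMSO the shares were 1.26% of closed and 1.66% of opened regions, against 0.873% of all DMSO regions. The outer 2 Mb at both ends of all chromosomes held 9.63% of opened and 10.2% of closed regions, against 10.7% of all. In DMSO they held 13.4% of opened and 7.23% of closed regions, against 10.1% of all DMSO regions.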

How the data were processed

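ATAC-seq was run on whole embryos in 12 libraries, 2 for each of 6 groups, and the authors deposited 1 peak list per library. Per the submitters' processing notes, Bowtie2, SAMtools and MACS2 were used with GRCz10 (danRer10), with versions and settings not given in the sources used here. Peak names contain "nucfree", and how such fragments were selected is not stated, so sites read through longer fragments may be missing. Each list holds the deposited fold enrichment (a ratio to the caller's background), −log10 p and −log10 q-values, and a score that follows the −log10 q-value.

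From these, peaks on chromosomes 1 to 25 were ranked by −log10 p, then fold, then position. Overlap meant at least 1 bp. The fold and p deposited were solved for the pileup at each summit, which came out whole within 0.001 for 100% of peaks in each list, and the most frequent background measured depth. It is comparable only if the caller's settings were alike. No counting interval is given, since read totals are unknown. Python 3.11.15, numpy 2.4.6, pandas 2.3.3 and scipy 1.17.1 were used. Calling was tested on simulated lists.

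Named regions were those with the best worse rank, 8 per direction and 4 per contrast with DMSO, those at the limit, and the 3 densest windows per direction. The members and rules were chosen with earlier results of these data known. Gene lists, motifs and sequences were not used here, as no genome or annotation of GRCz10 was at hand. Same-numbered libraries did not deviate together (r = -0.00149 over constant regions).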

Additional observations from a re-analysis of the deposited data

Results flagged for a closer look

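Mitochondrial peaks, which were kept out of all comparisons, covered 6054 and 6063 bp in the 12 somites atRA libraries and 5879 and 5912 bp in the 12 somites DMSO libraries. The atRA mean of 6058.5 bp thus lay above both control libraries, which drew attention to it. At 80% epiboly the values were 6228 and 5462 bp in atRA and 5932 and 6201 bp in DMSO. Background pileups were 1.60 and 1.44 in atRA and 0.69 and 1.15 in DMSO at 12 somites, and their part in the difference was not tested.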

How the results depend on the processing

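Counts depended on the rule. In atRA 1016 regions opened and 974 closed with the 20000 and 40000 best peaks, 356 and 303 when a region had to lack any peak at the other stage, and 20948 and 17048 with all peaks of q at most 0.01, where lists differ in length. Leaving out 1 library gave 4029 to 5621 opened and 3241 to 5449 closed regions, since 1 library of that stage then decides. The share of atRA-opened regions also opened in DMSO was 25.8% with the 20000 best, 16.7% with the 75000 best, 18.5% by fold, 3.93% with no peak anywhere and 4.54% with q at most 0.01, and 12.0% to 18.2% with 1 library left out. For closed regions it was 37.1%, 30.2%, 48.5% with a reciprocal overlap of 50%, 56.5% with q at most 0.01, and 21.0% to 25.98% with 1 library left out. The DMSO lists changed in length as well. Closed ones held 9527 regions with the reciprocal overlap and 148799 with q at most 0.01, against 4456 by the main rule. Opened ones held 116 with no peak anywhere and 3397 with q at most 0.01, against 2711. Shares over all DMSO regions were not computed for these settings, so these overlaps cannot be compared as agreement.

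The difference between later libraries and 80% epiboly DMSO turned to -12.7 points for opened regions with q at most 0.01; the cause was not tested. With 1 library left out it was 34.0 to 50.8 points for opened and -63.6 to -37.6 points for closed regions. With the 12 somites DMSO libraries alone it was 42.1 and -63.0 points (exact permutation p = 0.33), and without an 80% epiboly DMSO library the smallest exact p allowed is 0.143. With a replicate block, which asks each numbered pair to change, the counts were 2616 and 2081 by construction. The labels do not say whether the numbers pair the libraries, and the correlation over constant regions cannot settle it. Depth limits all statements of absence, among others in the shallow 80% epiboly atRA replicate 2 and 12 somites DMSO replicate 1.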
